A study of Mus musculus with 10 samples.

Results

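A set of 10 genes of redox metabolism were followed through 10 mouse liver libraries: Nnt, Nox4, Nqo1, Gclc, Gclm, Srxn1, Txnrd1, Sod2, Prdx3 and Hmox1. They were chosen by name, with earlier results of these data known. All 10 were found among the 19271 genes of the table after summing transcripts by gene identifier. The study compared mice that differ in 1 amino acid of HtrA2/Omi, a serine protease of the mitochondrial intermembrane space in which S400D puts aspartate in place of serine. Every animal was of the C57BL6/N strain and 2 months old. The groups were 3 wild-type males (WT/WT), 3 heterozygous males (S400D/WT), 3 homozygous males (S400D/S400D) and 1 homozygous female. Genotype was given per animal, with no Cre driver or tissue restriction named, and no label gave the litter, the hour of collection or a wild-type female. The labels number the replicates without saying more of their origin, so a p-value here measures no more than the spread among these libraries.

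Cells hold reactive oxygen species in check with enzymes that draw their electrons from NADPH, the reduced dinucleotide spent by the glutathione and thioredoxin systems. In mitochondria the transhydrogenase encoded by Nnt makes NADPH, whereas the NADPH oxidase encoded by Nox4 spends it to make hydrogen peroxide. The transcription factor NRF2 (gene Nfe2l2), held back by KEAP1 and opposed by BACH1, turns on many antioxidant genes through antioxidant response elements, among them Nqo1, Gclc, Gclm, Srxn1, Txnrd1 and Hmox1.

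Each library held 16240441 to 17264289 expected counts. Of the genes, 12427 were tested in the 9 males with edgeR's quasi-likelihood test, which called none at an adjusted p (Benjamini-Hochberg) under 0.05 in any of the 3 comparisons between genotypes. At an unadjusted p under 0.05 there were 1852 genes between homozygous and wild-type, 521 between heterozygous and wild-type and 2134 between homozygous and heterozygous males. limma-voom also called none, and DESeq2 called 307 between homozygous and wild-type males, 7 between heterozygous and wild-type males and 544 between homozygous and heterozygous males. The tissue label held up against its markers, since 8 of 8 hepatocyte markers had reads in every library. In wild-type males their summed level was 99863 to 114450 CPM (counts scaled to the library total). It was 81126 to 103820 CPM in heterozygotes and 118920 to 139860 CPM in homozygotes. Marker by marker, 4 of the 8 had a positive log2 fold change between homozygous and wild-type males, with a median of 0.02. Between homozygous and heterozygous males 6 of the 8 did, with a median of 0.26. Libraries stood apart in other ways as well. Transcript length weighted by FPKM (the deposited per-length level) was 1440.4 to 1461.5 bases in the 4 homozygous libraries, of both sexes. It was 1271.2 to 1379.1 bases in the other 6, so this split followed genotype. The part of length in the genotype differences was not tested beyond 1 alternative setting, in which the length trend was removed. The summed level of 12 macrophage and Kupffer cell markers, all with reads in all 10 libraries, was 232 CPM in heterozygous male 1 and 232 and 183 CPM in wild-type males 2 and 3, against 444 to 571 CPM in the other 7. The same 3 libraries were lowest in sinusoidal endothelial markers, 9 of 9 with reads in all libraries, at 170.3, 115 and 121 CPM against 208 to 284 CPM in the other 7. They were also lowest in stellate cell and matrix markers, 10 of 10 with reads in all libraries, at 342, 216 and 157 CPM against 390.0 to 609 CPM, so the split was not particular to macrophages. Between homozygous and wild-type males, 12 of 12 macrophage, 9 of 9 endothelial and 9 of 10 stellate markers had a positive log2 fold change, with medians of 0.64, 0.56 and 0.82, and 0 of them had an edgeR adjusted p under 0.05. Arntl and Dbp, genes of the daily clock, put all 3 homozygous males and heterozygous male 2 (Arntl 17.6 to 37.9 CPM, Dbp 1.26 to 12.8 CPM) apart from the other 6 libraries (Arntl 1.18 to 4.21 CPM, Dbp 105 to 249 CPM).

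Of the 10 members, 0 passed the adjusted threshold with edgeR in any comparison, beside 0% of all genes. Between homozygous and wild-type males, 2 of the 10 had an unadjusted p under 0.05, beside 14.9% of all genes tested, and in 3 the groups did not overlap, beside 20.7% of all genes. Between heterozygous and wild-type males, 0 members had such a p, beside 4.19% of all genes, and 1 did not overlap, beside 10.1%. Between homozygous and heterozygous males, 3 had such a p, beside 17.2% of all genes, and 5 did not overlap, beside 22.3%. The members' median log2 fold change was 0.08, -0.10 and 0.19 in these comparisons, beside 0.00, 0.01 and 0.00 over all genes tested. The comparisons share groups: homozygous males enter 2 of them, as do wild-type and heterozygous males. The members' shares lay furthest above those of all genes between homozygous and heterozygous males. With 10 genes, the shares were not tested against the background and are no result about the members as a set. The 3 members that did not overlap between homozygous and wild-type males were Nox4, which was lower, and Hmox1 and Nnt, which were higher in homozygous males, Nnt with an unadjusted p of 0.0724.

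**Figure D1:**
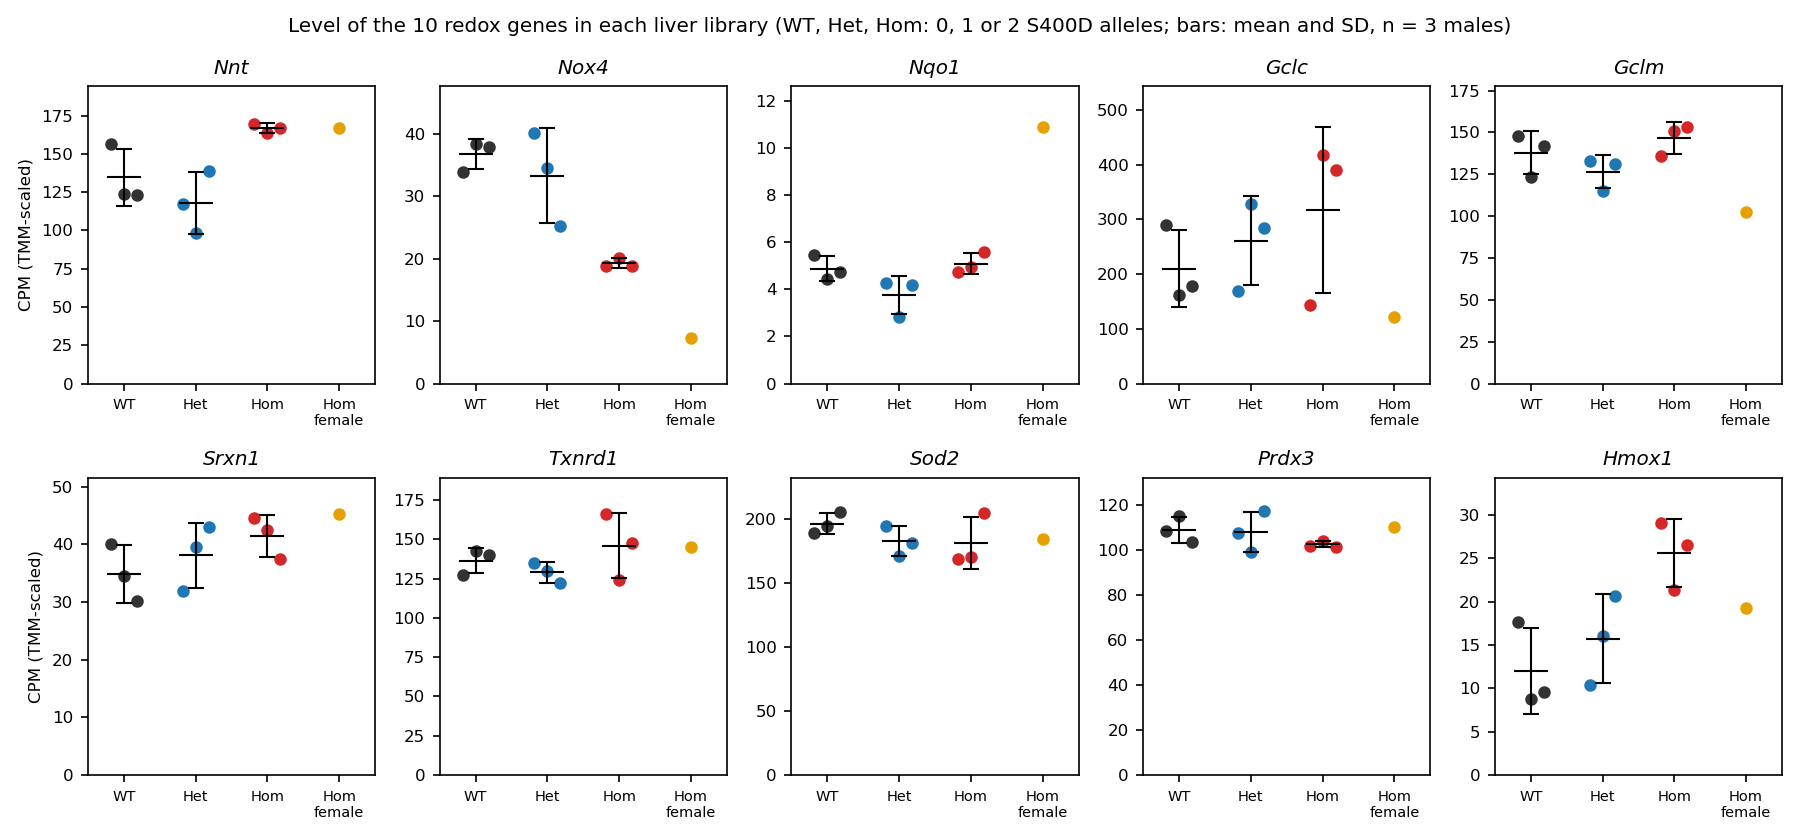
Level of each member in each library, in CPM scaled by the trimmed mean of M-values (TMM), with each vertical axis starting at 0; points are libraries, and the bars give the mean and SD of 3 males. Nox4 lay between 18.7 and 20.1 CPM in the homozygous males and at 25.2 CPM or more in the other males, whereas Sod2 and Prdx3 varied little.

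On the per-length scale (FPKM, as deposited), the highest of the members was Prdx3 at 91.3 ± 6.47 FPKM (mean and SD over the 10 libraries). Gclc followed at 80.6 ± 35.6 FPKM and Gclm at 74.4 ± 9.31 FPKM, and the wide spread of Gclc covered both of its neighbours, whereas Prdx3 was above Gclm in all 10 libraries. Sod2 (52.5 ± 3.04 FPKM), Txnrd1 (44.2 ± 4.06 FPKM) and Nnt (42.4 ± 8.36 FPKM) formed a middle tier whose order was not the same in every library. In homozygous male 1, Sod2 (47.9 FPKM) was below Nnt (50.6 FPKM) and Txnrd1 (53.4 FPKM). Srxn1 (15.4 ± 2.63 FPKM) and Hmox1 (13.9 ± 5.50 FPKM) overlapped in the same way. Nox4 (7.77 ± 2.99 FPKM) and Nqo1 (4.10 ± 1.79 FPKM) were the lowest. Across libraries, the highest CPM was 1.18 times the lowest for Prdx3 and 1.21 times for Sod2, but 3.32 times for Hmox1, 3.41 times for Gclc, 3.84 times for Nqo1 and 5.50 times for Nox4.

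Nnt (gene identifier 18115, chr13:119335527-119409257 in GRCm38.p6) encodes the proton-driven transhydrogenase of the inner mitochondrial membrane. Its level was 156, 124 and 123 CPM in wild-type males 1 to 3, 117, 98.1 and 138 CPM in heterozygous males, 169.8, 164 and 167 CPM in homozygous males and 167 CPM in the homozygous female. The 4 homozygous libraries, of both sexes, lay above all 6 others and close together: the coefficient of variation was 1.84% in homozygous males, against 14.0% in wild-type and 17.1% in heterozygous males. Homozygous males differed from wild type by a log2 fold change of 0.30 (SE 0.15, 95% interval -0.03 to 0.63), with an edgeR adjusted p of 0.374. Against heterozygous males the log2 fold change was 0.50 (SE 0.15, interval 0.16 to 0.83), with an unadjusted p of 0.0081 and an edgeR adjusted p of 0.161. Heterozygous against wild-type males gave -0.20 (SE 0.15), with an edgeR adjusted p of 0.972. That value was -0.07 without wild-type male 1, -0.08 without heterozygous male 2 and -0.32 without heterozygous male 3. Without heterozygous male 1 and wild-type males 2 and 3, the libraries low in macrophage markers, the homozygous-to-wild-type log2 difference of Nnt was 0.10 (edgeR adjusted p = 0.942) with 1 wild-type library left, which is assumed to vary like the other groups. Heterozygous male 2 (Arntl 31.5 CPM) had the lowest Nnt, and the homozygous female (Arntl 1.60 CPM) matched the homozygous males. These are 2 single animals, and the part of the clock or macrophage measures in the Nnt difference was not tested. C57BL/6J mice are known to carry a deletion within Nnt that C57BL/6N mice lack. Only 1 Nnt transcript is listed, so counts per transcript do not show the deletion. Whether the level of the gene bears on the substrain was not tested.

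Nox4 (50490, chr7:87244430-87398710) encodes the NADPH oxidase catalytic subunit that is active without the cytosolic activators other family members need. Its level was 33.9, 38.3 and 37.9 CPM in wild-type males, 40.2, 34.5 and 25.2 CPM in heterozygous males, 18.8, 20.1 and 18.7 CPM in homozygous males and 7.30 CPM in the homozygous female. Every homozygous library was below every other library, and the female was lowest. The homozygous mean was 19.2 ± 0.79 CPM (SD, n = 3), 0.523 times the wild-type mean of 36.7 ± 2.44 CPM and 0.578 times the heterozygous mean of 33.3 ± 7.55 CPM.

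The log2 fold change of Nox4 between homozygous and wild-type males was -0.94 (SE 0.15, 95% interval -1.28 to -0.60). Its unadjusted p of 0.000135 ranked 7 among the 12427 genes, and its edgeR adjusted p was 0.147. Since the members were chosen with earlier results of these data known, this rank is not independent support for the difference. DESeq2 gave the same difference an adjusted p of 0.000148. Over all 23 alternative settings the log2 difference ran from -0.996 to -0.776 and the adjusted p from 0.000148 to 0.839, with DESeq2 alone under the threshold. Against heterozygous males the log2 fold change was -0.79 (SE 0.15, interval -1.13 to -0.45), with an edgeR adjusted p of 0.104 and a DESeq2 adjusted p of 0.00189. Heterozygous against wild-type males differed by -0.15 (SE 0.15, interval -0.49 to 0.18), with an edgeR adjusted p of 0.972, and of the heterozygotes 1 was below, 1 inside and 1 above the wild-type range. In bulk liver, fewer cells of a type and less RNA per cell cannot be told apart.

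The clock measures moved with Nox4 among the homozygous and wild-type males, where Arntl was 17.6 to 37.9 against 2.44 to 4.21 CPM. Heterozygous male 2, with 31.5 CPM of Arntl, had 34.5 CPM of Nox4, inside the wild-type range. The homozygous female, with 1.60 CPM of Arntl, had the lowest Nox4. Nox4 was also 33.9 CPM in wild-type male 1 and 37.9 and 38.3 CPM in wild-type males 3 and 2, although their summed macrophage markers were 571, 183 and 232 CPM. Summed stellate cell and matrix markers, 10 of 10 with reads in all libraries, were 157 to 423 CPM in wild-type males, 342 to 511 CPM in heterozygotes and 390.0 to 609 CPM in homozygotes. The part of these measures in the Nox4 difference was not tested further.

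Nox4 reads were divided among 8 listed transcripts, 6 of them with reads. The curated transcript NM_015760 held 427, 437 and 407 expected counts in wild-type males, 431, 329.6 and 309.9 in heterozygous males, 265, 229 and 184 in homozygotes and 38.9 in the female. That was 65.6% to 73.3% of the gene in wild-type males, 59.1% to 81.9% in homozygous males and 30.3% in the female. The curated transcript NM_001285835 held 23.7%, 22.6% and 30.6% in wild-type males, 16.04%, 29.3% and 36.7% in homozygous males and 67.8% in the female. Among males the shares overlapped between genotypes, whereas in the female the order of the 2 transcripts was turned. The female had 128 reads of Nox4 in all, and the split between transcripts that share exons is an estimate.

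**Figure D2:**
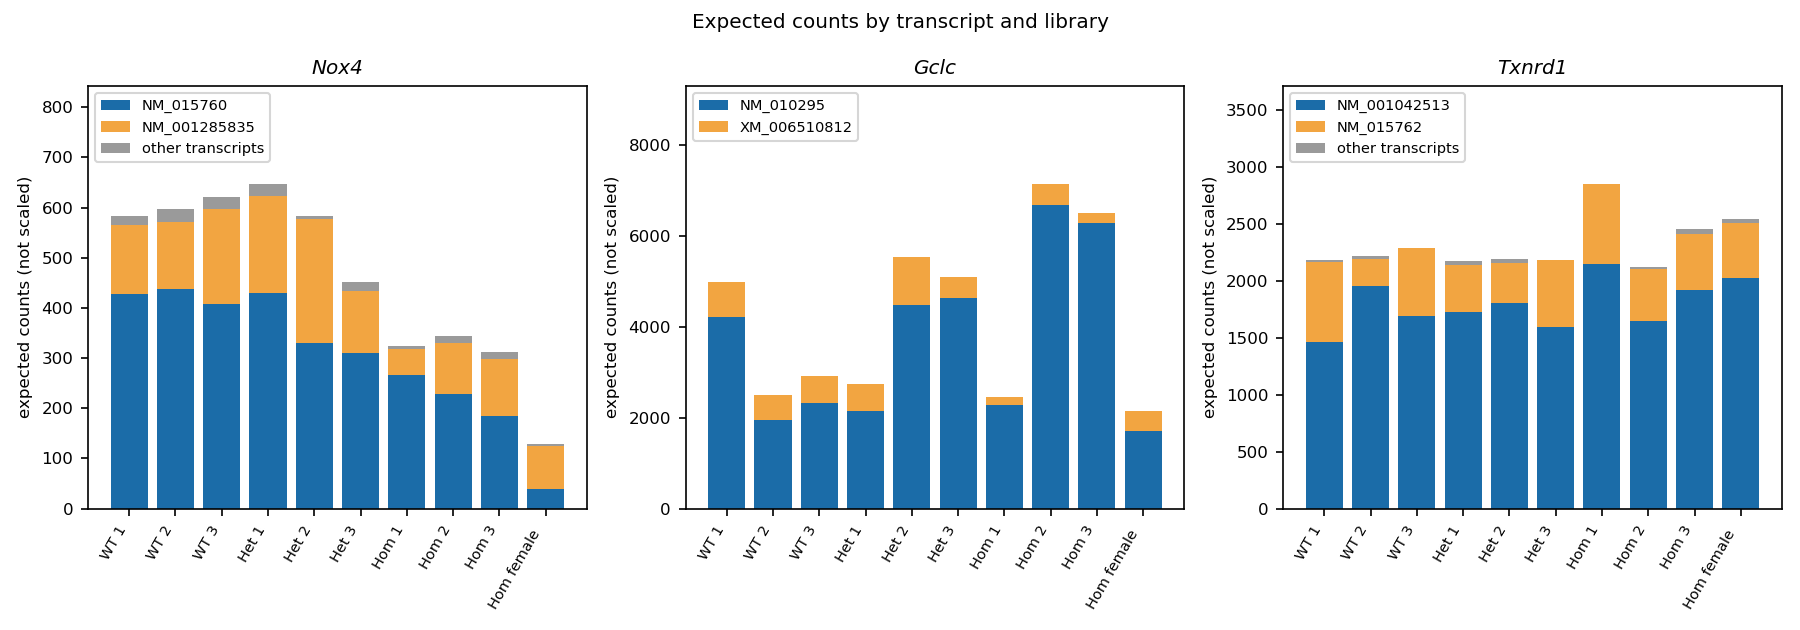
Expected counts (not scaled to library size) of the 2 leading transcripts and the sum of the other transcripts of Nox4, Gclc and Txnrd1, stacked, 1 bar per library. NM_015760 led Nox4 in all 9 males and NM_001285835 in the female.

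Hmox1 (15368, chr8:75093618-75100593) encodes haem oxygenase 1, which opens the haem ring, releases its iron and is abundant in macrophages that clear red cells. Its level was 17.7, 8.73 and 9.52 CPM in wild-type males, 10.4, 16.1 and 20.6 CPM in heterozygous males, 29.0, 21.4 and 26.5 CPM in homozygous males and 19.2 CPM in the female. The 3 homozygous males were above all 6 other males, and the female was inside the heterozygous range. Arntl was 17.6 to 37.9 CPM in homozygous males, 2.44 to 4.21 CPM in wild-type males and 1.60 CPM in the female. Heterozygous male 2, with 31.5 CPM of Arntl, had 16.1 CPM of Hmox1. The part of the clock measures in the Hmox1 difference was not tested. The mean was 25.6 ± 3.89 CPM in homozygous and 11.98 ± 4.95 CPM in wild-type males (SD, n = 3), a ratio of 2.14. The log2 fold change was 1.08 (SE 0.31, 95% interval 0.38 to 1.78), with an unadjusted p of 0.00662 and an edgeR adjusted p of 0.217. DESeq2 gave it an adjusted p of 0.0386, and over the 23 alternatives the adjusted p ran from 0.0386 to 0.839.

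The 3 libraries with the lowest macrophage, endothelial and stellate signal were also the 3 with the lowest Hmox1. Clec4f, which marks Kupffer cells, was 50.9 CPM in heterozygous male 1 and 50.1 and 39.8 CPM in wild-type males 2 and 3, beside Hmox1 levels of 10.4, 8.73 and 9.52 CPM. In the other 7 libraries Clec4f was 93.3 to 112 CPM. Without those 3 libraries the homozygous-to-wild-type log2 difference of Hmox1 was 0.54 (edgeR adjusted p = 0.839), with wild-type male 1 as the only wild-type library. Leaving out wild-type male 1 alone gave 1.48, and the other single omissions gave 0.90 to 1.19. The heterozygous-to-wild-type difference, 0.38 (SE 0.31, edgeR adjusted p = 0.972), was 0.06 without the same 3 libraries, 0.78, 0.20 and 0.25 without wild-type male 1, 2 or 3, and 0.61 and 0.14 without heterozygous male 1 or 3. All 3 homozygous males, with macrophage sums of 509.6 to 529 CPM, had more Hmox1 than wild-type male 1, heterozygous male 3 and the female, whose sums were 571, 535 and 521 CPM. Against heterozygous males the log2 difference was 0.70 (SE 0.31, interval 0.01 to 1.39), with an edgeR adjusted p of 0.286.

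**Figure D3:**
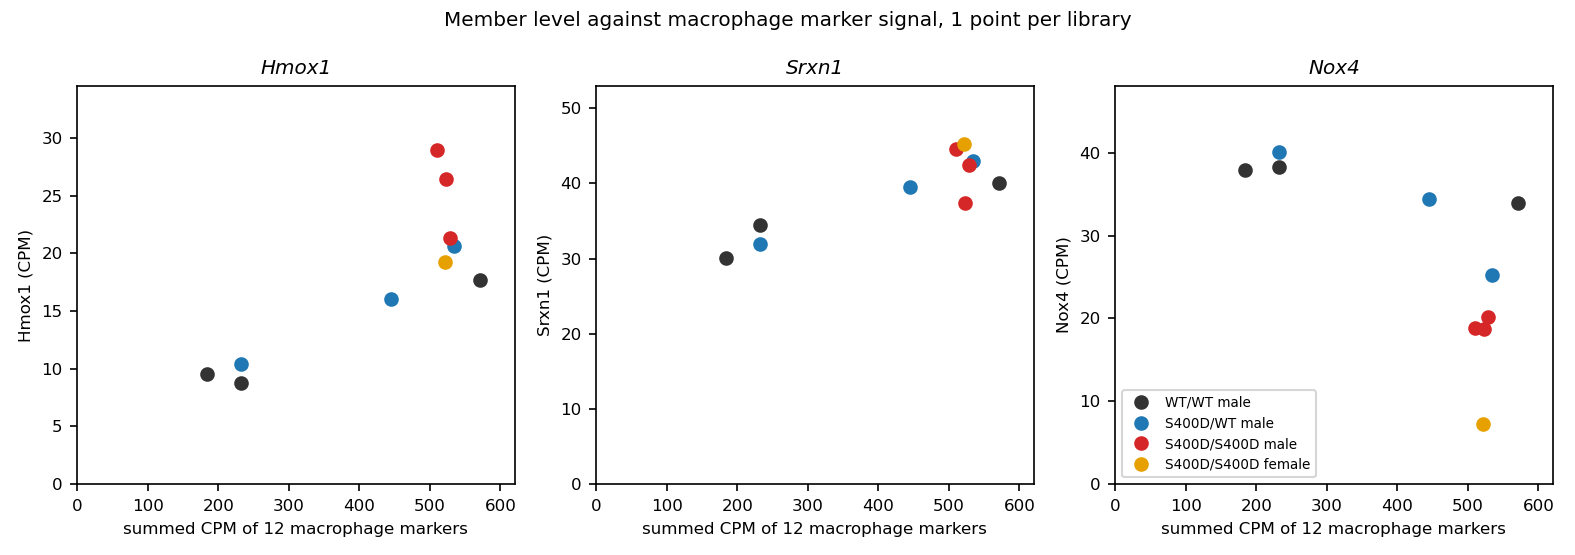
Level of Hmox1, Srxn1 and Nox4 (CPM) against the summed CPM of 12 macrophage and Kupffer cell markers, 1 point per library, coloured by genotype and sex. The 3 libraries with sums of 183 to 232 CPM held the lowest Hmox1, and Srxn1 was at or below 34.5 CPM in them.

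Of the NRF2-responsive members that could be searched, 3 had the core of the antioxidant response element in the stretch around a start site. These are shown with Nox4, the member with the lowest p. RefSeq start-site windows (GRCm38.p6) of 300 bases, from 250 before to 50 after a start, were at hand for 7 of the 10 members, with 9 windows in all. No window was at hand for Nnt, Gclc or Hmox1, so these were not searched. Both strands were searched for the element core TGACNNNGC, the AP-1 site TGACTCA, the E-box CACGTG and the D-box TTATGTAA. The core was present in 12.4% of 32851 mouse windows of this length, the AP-1 site in 5.20%, the E-box in 7.15% and the D-box in 0.938%. Counting from the start to the leftmost letter of a match, Srxn1 had the core (minus strand) at 29 and the AP-1 site at -102 and -45, Gclm the core at -134 and Txnrd1 the core at -92 of 1 of its 3 windows. The windows of Nox4, Nqo1, Sod2 and Prdx3 and the other 2 of Txnrd1 held none of the 4 motifs, which says only that these letters are not in these windows. In the sequences, 5′ to 3′ on the plus strand, capitals mark the matches.
Srxn1, chr2:152105274-152105573, plus strand: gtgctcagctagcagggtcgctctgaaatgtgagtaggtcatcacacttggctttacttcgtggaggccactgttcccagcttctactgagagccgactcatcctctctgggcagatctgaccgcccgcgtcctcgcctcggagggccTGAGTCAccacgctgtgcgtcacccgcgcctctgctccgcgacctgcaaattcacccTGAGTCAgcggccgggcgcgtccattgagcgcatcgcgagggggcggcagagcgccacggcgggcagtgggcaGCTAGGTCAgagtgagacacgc
Gclm, chr3:122245307-122245606, plus strand: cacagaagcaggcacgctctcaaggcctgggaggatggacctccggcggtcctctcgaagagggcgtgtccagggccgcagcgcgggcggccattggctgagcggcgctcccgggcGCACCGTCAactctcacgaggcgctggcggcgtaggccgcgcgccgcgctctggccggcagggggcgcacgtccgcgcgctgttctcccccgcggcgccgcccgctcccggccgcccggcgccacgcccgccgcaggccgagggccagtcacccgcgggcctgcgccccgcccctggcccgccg
Txnrd1, chr10:82858956-82859255, plus strand: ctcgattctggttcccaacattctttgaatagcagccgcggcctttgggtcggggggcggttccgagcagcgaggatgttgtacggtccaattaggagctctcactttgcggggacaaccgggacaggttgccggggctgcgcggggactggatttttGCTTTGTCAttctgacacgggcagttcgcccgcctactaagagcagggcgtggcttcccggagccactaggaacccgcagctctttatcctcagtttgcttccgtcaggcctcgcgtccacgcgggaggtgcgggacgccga
Nox4, chr7:87246399-87246698, plus strand, with no match: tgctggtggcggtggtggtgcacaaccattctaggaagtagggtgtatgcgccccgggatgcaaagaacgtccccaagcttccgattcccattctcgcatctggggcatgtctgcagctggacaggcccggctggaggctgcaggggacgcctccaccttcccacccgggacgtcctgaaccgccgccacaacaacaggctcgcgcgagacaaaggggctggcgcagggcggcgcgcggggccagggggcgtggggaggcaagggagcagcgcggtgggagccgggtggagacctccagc

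Gclc (14629, chr9:77754535-77794489) and Gclm (14630, chr3:122245487-122267215) encode the catalytic and the modifier subunit of glutamate-cysteine ligase, which makes the precursor of glutathione. Gclc was 290.2, 161 and 178 CPM in wild-type males, 169.9, 327 and 285 CPM in heterozygous males, 143, 417 and 391 CPM in homozygous males and 122 CPM in the female. Each genotype held libraries between 143 and 178 CPM and others between 285 and 417 CPM, and the groups overlapped. The homozygous-to-wild-type log2 difference was 0.59 (SE 0.42, 95% interval -0.35 to 1.52), with an edgeR adjusted p of 0.523. It ran from 0.13 to 0.94 over the alternatives.

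Gclm was 148, 124 and 142 CPM in wild-type males, 133, 115 and 131 CPM in heterozygous males, 136, 151 and 153 CPM in homozygous males and 102 CPM in the female. Its homozygous-to-wild-type log2 difference was 0.08 (SE 0.11, interval -0.18 to 0.33), with an edgeR adjusted p of 0.767. The homozygous males were all above the heterozygous males, by 0.21 (SE 0.11, edgeR adjusted p = 0.370). The 2 subunits did not share the spread of Gclc: the coefficient of variation of homozygous males was 47.7% for Gclc and 6.43% for Gclm. A predicted Gclc transcript, XM_006510812, took 3.59% to 7.33% of the gene in homozygous males, 9.34% to 21.5% in heterozygous males, 15.4% to 22.2% in wild type and 20.4% in the female.

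Nqo1 (18104, chr8:107388225-107403205) encodes the quinone reductase whose induction is a common readout of NRF2. Its level was 5.47, 4.43 and 4.76 CPM in wild-type males, 4.28, 2.84 and 4.19 CPM in heterozygous males, 4.76, 4.96 and 5.58 CPM in homozygous males and 10.9 CPM in the female. The heterozygous males were all below both other male groups, and the female was highest, with 191 reads against 48 to 94 in the males. The homozygous-to-wild-type log2 difference was 0.05 (SE 0.20, interval -0.40 to 0.50), with an edgeR adjusted p of 0.927. Heterozygous males differed from wild type by -0.38 (SE 0.20, edgeR adjusted p = 0.972), and homozygous males from heterozygous males by 0.43 (SE 0.20, edgeR adjusted p = 0.311). Without heterozygous male 2, which had the lowest level, these differences were -0.22 and 0.27.

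Srxn1 (76650, chr2:152105524-152111376) encodes sulfiredoxin, which restores peroxiredoxins whose cysteine has been over-oxidised. It was 40.1, 34.5 and 30.1 CPM in wild-type males, 31.9, 39.6 and 42.9 CPM in heterozygous males, 44.6, 42.4 and 37.4 CPM in homozygous males and 45.3 CPM in the female. The 3 libraries low in macrophage, endothelial and stellate markers were again the 3 lowest, and the groups overlapped. The homozygous-to-wild-type log2 difference was 0.24 (SE 0.14, interval -0.09 to 0.56), with an edgeR adjusted p of 0.466, and 0.05 without those 3 libraries. The part of these cell-type signals in Hmox1 and Srxn1 was not tested beyond these values.

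Txnrd1 (50493, chr10:82833951-82897724) encodes the cytosolic thioredoxin reductase. It was 127, 142 and 139.9 CPM in wild-type males, 135, 129.7 and 122 CPM in heterozygous males, 166, 124 and 148 CPM in homozygous males and 145 CPM in the female. The groups overlapped, and the homozygous-to-wild-type log2 difference was 0.09 (SE 0.12, interval -0.18 to 0.35), with an edgeR adjusted p of 0.750. Its curated transcript NM_001042513 held 67.0% to 88.4% of the gene in every library.

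Sod2 (20656, chr17:13007839-13018119) encodes the manganese superoxide dismutase and Prdx3 (11757, chr19:60864066-60874538) the peroxiredoxin of the mitochondrial matrix. Sod2 was 189, 195 and 205 CPM in wild-type males, 195, 172 and 182 CPM in heterozygous males, 169, 170.4 and 205 CPM in homozygous males and 185 CPM in the female. Prdx3 was 108, 115 and 104 CPM in wild-type males, 108, 99.1 and 117 CPM in heterozygous males, 102, 104 and 102 CPM in homozygous males and 110.2 CPM in the female. Both sets of groups overlapped. The homozygous-to-wild-type log2 difference was -0.12 (SE 0.11, interval -0.38 to 0.13, edgeR adjusted p = 0.609) for Sod2. It was -0.10 (SE 0.10, interval -0.31 to 0.12, edgeR adjusted p = 0.646) for Prdx3. These intervals exclude differences of the size seen for Nox4 in either direction.

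**Figure D4:**
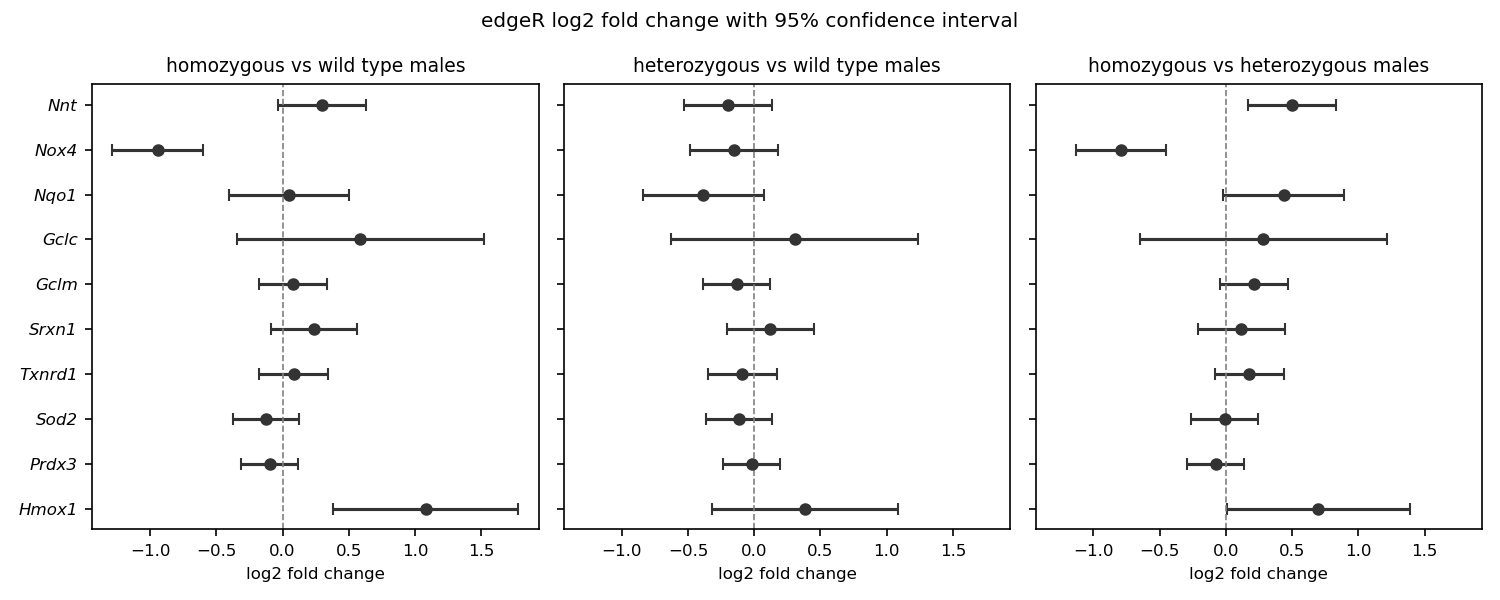
edgeR log2 fold change (horizontal axis) of each member with its 95% confidence interval, in the 3 comparisons between male genotypes. The intervals of Nox4 and Hmox1 lay off 0 between homozygous and wild-type males and those of Nnt, Nox4 and Hmox1 between homozygous and heterozygous males, before adjustment over all genes.

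The homozygous female had no wild-type counterpart, so sex and the single animal cannot be told apart. Relative to the mean of the homozygous males, the female held 0.380 times the Nox4, 0.386 times the Gclc, 0.699 times the Gclm and 0.750 times the Hmox1 level (CPM). Nqo1 was 2.14 times the male level. Nnt, Txnrd1, Sod2, Prdx3 and Srxn1 were 0.994 to 1.09 times the male level.

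Across the 10 libraries, the log2 CPM of 45 pairs of members was compared by Spearman's rho and Pearson's r, with two-sided permutation p-values. Of the pairs, 8 had an unadjusted p under 0.05 for rho (4 of them positive), and 0 after Benjamini-Hochberg adjustment over the 45, the smallest adjusted p being 0.101. All 8 had an absolute rho of at least 0.685, which 6.32% of all pairs of tested genes reached. By Pearson's r, 8 pairs also had an unadjusted p under 0.05 and 0 an adjusted one, the smallest being 0.156. The libraries share genotype, so each pair is also given within genotypes (deviations from the genotype means of the 9 males).

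Nnt and Nox4 had a rho of -0.867 (permutation p = 0.00238, adjusted 0.101) and an r of -0.70 (permutation p = 0.0209, adjusted 0.156). The r was -0.71 without the 2 libraries farthest from the median of Nnt, and the rho within genotypes was -0.65. Nox4 and Hmox1 had a rho of -0.830 (permutation p = 0.00451, adjusted 0.101) and an r of -0.63 (permutation p = 0.0470, adjusted 0.265). Their r was -0.89 without the 2 libraries farthest from the median of Nox4, and the rho within genotypes was -0.73. With the 9 males alone this pair had a rho of -0.933 and a permutation p adjusted over the 45 pairs of 0.0169. Nqo1 and Gclm, with a rho of 0.406 over 10 libraries, reached 0.933 in the 9 males (adjusted permutation p = 0.0169) and 0.90 within genotypes. The female, high in Nqo1 and low in Gclm, set them apart. Srxn1 and Hmox1 had a rho of 0.685 (permutation p = 0.0352, adjusted 0.198), an r of 0.81 (permutation p = 0.00625, adjusted 0.156), and a rho of 0.917 within genotypes. Gclc and Txnrd1, with a rho of -0.527, had -0.933 within genotypes. Nox4 and Nqo1 had an r of -0.80 (permutation p = 0.0145, adjusted 0.156) and a rho of -0.636 (permutation p = 0.0551, adjusted 0.276), but the r was -0.24 without the 2 libraries farthest from the median of Nox4, so it rested on those.

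**Figure D5:**
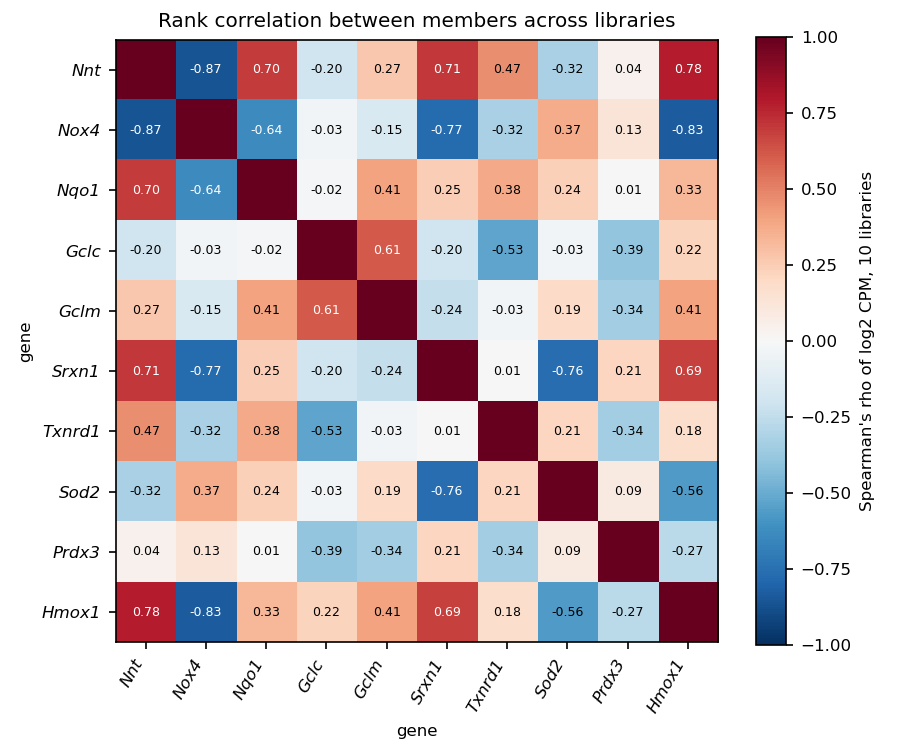
Spearman's rho of log2 CPM between each pair of members over the 10 libraries, from -1 (blue) to 1 (red). Nox4 ran opposite to Nnt (-0.87), Hmox1 (-0.83) and Srxn1 (-0.77).

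The genes most like each of 4 members were ranked by Pearson's r of log2 CPM over the 10 libraries, among the 9238 tested genes whose mean reached 5 CPM. For Nnt they were Rnf128 (r = 0.95), Aldh6a1 (0.93) and Ldha (0.92). For Nox4 they were Ugt2b5 (0.97), Mup3 (0.97) and Dpp7 (0.96). Mup3, which encodes a major urinary protein, was 4439 to 5986 CPM in wild-type males, 1955, 2401 and 3120 CPM in homozygous males and 939.7 CPM in the female. For Nqo1 they were Ugt1a1 (0.95), Prlr (0.94) and Ccnd3 (0.93), with the female highest in all 3. For Hmox1 they were a gene with identifier 11641 (0.97), Trpm2 (0.97) and Hip1 (0.97). These are descriptions over libraries that share genotype, sex and macrophage signal.

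Among the NADPH oxidase genes, 10 of 17 were tested, and Nox4 was the 1 with an unadjusted p under 0.05 between homozygous and wild-type males. The list's median log2 fold change was 0.35, beside 0.00 over all genes. Cybb and Cyba encode the membrane subunits of the phagocyte oxidase, of which the product of Cyba also partners NOX4. Cyba was 5.43 ± 3.01 CPM in wild-type males, 6.26 ± 1.76 CPM in heterozygotes and 7.87 ± 0.66 CPM in homozygotes (SD, n = 3), with a homozygous-to-wild-type log2 difference of 0.52 (edgeR adjusted p = 0.511). Cybb was 8.51 ± 5.79, 12.7 ± 5.77 and 14.6 ± 2.06 CPM in the same order (log2 difference 0.76, edgeR adjusted p = 0.481). Both were lowest in the 3 libraries low in macrophage markers, at 3.48 to 4.52 CPM for Cyba and 4.09 to 6.36 CPM for Cybb. Nox1 was listed with at most 1 read in any library.

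For this list and those that follow, the shares of all tested genes at an unadjusted p under 0.05 were 14.9% between homozygous and wild-type males (848 higher and 1004 lower), 4.19% between heterozygous and wild-type males (208 and 313) and 17.2% between homozygous and heterozygous males (1025 and 1109). The list counts are descriptions to be read against these shares, and nothing is called particular to a list from them. Among 18 tested sources of NADPH, the homozygous-to-wild-type comparison had 0 genes higher and 4 lower at an unadjusted p under 0.05, with a list median of -0.16. Me1, the cytosolic malic enzyme, was 271 ± 134 CPM in wild-type males and 127 ± 23.3 CPM in homozygotes, a log2 difference of -1.10 (SE 0.33, edgeR adjusted p = 0.227). Tkt and Taldo1, of the non-oxidative pentose phosphate pathway, differed by -0.75 (SE 0.28, edgeR adjusted p = 0.278) and -0.43 (SE 0.14, edgeR adjusted p = 0.254). Against heterozygous males, 2 of the 18 were higher and 4 lower at that p. The 2 were Nnt and H6pd, the hexose-6-phosphate dehydrogenase of the endoplasmic reticulum, which was 643 ± 30.6 CPM in homozygous and 436 ± 14.0 CPM in heterozygous males (log2 difference 0.56, edgeR adjusted p = 0.135). Heterozygous and wild-type males differed in none of the 18 at that p.

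Of 11 regulators of NRF2, 0 were higher and 1 lower at an unadjusted p under 0.05 between homozygous and wild-type males. That was Nfe2l2 itself, at 72.3 ± 9.80 CPM in wild-type males, 72.7 ± 4.05 CPM in heterozygotes and 58.8 ± 5.88 CPM in homozygotes, a log2 difference of -0.31 (SE 0.13, edgeR adjusted p = 0.306). Keap1 was 60.6 ± 3.34, 58.4 ± 5.34 and 62.4 ± 1.63 CPM in the same order. Bach1 was 43.2 ± 4.94, 34.8 ± 10.9 and 34.4 ± 3.95 CPM (homozygous-to-wild-type log2 difference -0.34, edgeR adjusted p = 0.439). Mafk, a small MAF partner, was lower in heterozygous than wild-type males by a log2 difference of -0.50 (edgeR adjusted p = 0.972). Against heterozygous males, 2 were higher (Sqstm1 and Cul3) and 1 lower (Nfe2l2) in homozygous males at that p.

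Of 35 NRF2 targets, 2 were higher and 3 lower at an unadjusted p under 0.05 between homozygous and wild-type males, and the list's median log2 fold change was 0.01. Hmox1 led the higher and Me1 and Taldo1 the lower. Between heterozygous and wild-type males 0 were higher and 1 lower: Gsta2, a glutathione transferase, at 11.8 ± 2.27 against 24.7 ± 3.73 CPM (log2 difference -1.07, SE 0.26, edgeR adjusted p = 0.972). Against heterozygous males, 4 were higher and 3 lower in homozygous males, with Gsta2 at 22.2 ± 8.14 CPM in the latter.

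Of 24 tested glutathione genes, 3 were higher and 2 lower in homozygous than wild-type males at that p. Glrx5, the glutaredoxin of mitochondrial iron-sulfur cluster assembly, was 68.4 ± 1.71 CPM in wild-type males and 48.3 ± 0.033 CPM in homozygous males, a log2 difference of -0.51 (SE 0.14, edgeR adjusted p = 0.207). It was 71.4 CPM in the homozygous female and 79.6, 51.7 and 69.7 CPM in heterozygous males 1 to 3. Arntl was high in heterozygous male 2 and low in the female. The part of the clock measures in this difference was not tested. The cytosolic glutaredoxin Glrx had a log2 difference of 0.52 (edgeR adjusted p = 0.292) and the membrane-bound glutathione transferase Mgst1 one of -0.55 (edgeR adjusted p = 0.284). Chac1, which degrades glutathione, was 4.36 ± 0.94 CPM in wild-type males, 2.07 ± 1.01 CPM in heterozygotes and 7.47 ± 2.11 CPM in homozygotes. Its log2 difference was 1.84 (SE 0.36, edgeR adjusted p = 0.104) between homozygous and heterozygous males and -1.07 (SE 0.37, edgeR adjusted p = 0.972) between heterozygous and wild-type males. Against heterozygous males, 4 genes of this list were higher and 3 lower.

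Of 22 thioredoxin and peroxiredoxin genes, 3 were higher and 4 lower between homozygous and wild-type males at that p, with a list median of -0.11. Sesn2, a stress-responsive sestrin, was 9.99 ± 1.43 against 5.69 ± 2.04 CPM (log2 difference 0.80, edgeR adjusted p = 0.237). Txnip, which binds and inhibits thioredoxin, differed by 0.69 (edgeR adjusted p = 0.249), and Prdx5, a peroxiredoxin found in mitochondria and peroxisomes, by -0.42 (edgeR adjusted p = 0.237). Of 17 superoxide and peroxide genes, 1 was higher and 3 were lower. Ccs, the chaperone that loads copper onto SOD1, was 167 ± 3.83 CPM in wild-type males and 124 ± 6.73 CPM in homozygous males (log2 difference -0.44, SE 0.11, edgeR adjusted p = 0.194). The homozygous female, at 189 CPM of Ccs, was above all wild-type males. The extracellular dismutase Sod3 differed by 0.81 (edgeR adjusted p = 0.308). It was 28.4 CPM in wild-type male 1, inside the homozygous male range of 24.0 to 40.7 CPM. Wild-type males 2 and 3, low in macrophage markers, had 15.8 and 10.9 CPM of Sod3. In both lists 0 genes passed that p between heterozygous and wild-type males. Against heterozygous males, 1 was higher and 4 lower in the former list and 1 higher and 3 lower in the latter.

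Of 19 tested haem and iron genes, 2 were higher and 4 lower between homozygous and wild-type males at that p, with a list median of 0.04. Beside the higher Hmox1, Blvra, the biliverdin reductase that acts after haem oxygenase, was 13.1 ± 0.94 CPM in wild-type males and 9.22 ± 1.80 CPM in homozygotes (log2 difference -0.52, SE 0.15, edgeR adjusted p = 0.219). Alad, an early enzyme of haem synthesis, was 145 ± 20.2 and 90.9 ± 28.4 CPM (log2 difference -0.68, SE 0.22, edgeR adjusted p = 0.254). Hmox2, the constitutive haem oxygenase, was 49.9 ± 5.68, 45.6 ± 1.03 and 56.9 ± 6.43 CPM with 0, 1 and 2 mutant alleles. Between heterozygous and wild-type males 0 of the 19 passed that p, and against heterozygous males 3 were higher and 4 lower.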

How the data were processed

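Liver RNA was poly(A)-selected and sequenced, per the labels' protocols. The deposited table gives 77712 transcripts with expected counts (estimated reads per transcript) and FPKM, both computed by the authors; the TPM values that the authors also deposited were not used. HISAT, Bowtie2 and GRCm38.p6 are named in the submitters' processing notes; for the counting program and strand setting, the sources used here give no name. Expected counts were summed by gene identifier and rounded, and 19214 of 19271 genes matched a RefSeq symbol. The 9 males were fitted together with edgeR 4.0.16 (TMM, filterByExpr, quasi-likelihood test, Benjamini-Hochberg over 12427 genes, R 4.3.3). Alternatives used DESeq2 1.42.0 and limma 3.58.1, with log2(FPKM + 1) or log2(FPKM + 0.1), and left out each library. CPM are TMM-scaled; log2 CPM add 0.5, and correlations used 100000 resamples. On simulated counts, edgeR was checked to recover set changes. Those changes were larger than any member difference and the simulated spread was fixed rather than taken from these libraries, so the check does not measure power here. The members and gene lists were chosen with earlier results of these data known. Named genes were all members, up to 3 genes per list and comparison by smallest unadjusted edgeR p under 0.05, 6 set regulators and oxidases (Nfe2l2, Keap1, Bach1, Cyba, Nox1, Cybb), the 3 most like 4 members, and Arntl, Dbp and Clec4f; not every gene the rule allows is printed. No 2 libraries of a group agreed within sampling noise (chi-square per degree of freedom of at least 24.3).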

Additional observations from a re-analysis of the deposited data

Results flagged for a closer look

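The homozygous female entered no comparison between genotypes, and 5 members had a level in the female above that of all 3 wild-type males. These were Nnt at 167 CPM, Nqo1 at 10.9 CPM, Srxn1 at 45.3 CPM, Txnrd1 at 145 CPM and Hmox1 at 19.2 CPM. Nox4 (7.30 CPM), Gclc (122 CPM), Gclm (102 CPM) and Sod2 (185 CPM) were below all 3, and Prdx3 (110.2 CPM) was inside the wild-type range. The share of all genes placed in these ways was not computed, so the count is no result about the members. For Nqo1 and Srxn1 the female was also above all 9 males. With 1 female and no wild-type female, sex, genotype and the single animal cannot be told apart.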

How the results depend on the processing

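Each comparison between genotypes was recomputed under 23 alternatives (690 values for the 30 member differences), of which 1, without heterozygous male 1 and wild-type males 2 and 3, was chosen after seeing the data. DESeq2 changed the number of genes called to 307, 7 and 544 of the 12427 tested. It brought 3 of the 30 member differences past the threshold. These were Nox4 at -0.94 and Hmox1 at 1.08 between homozygous and wild-type males, and Nox4 at -0.79 between homozygous and heterozygous males. The comparisons share groups. The count was not tested against all genes, so it is no result about the members as a set. Leaving out single libraries gave 0 to 18 calls for homozygous against wild-type males (18 without wild-type male 1, 2 without homozygous male 2), 0 between heterozygous and wild-type males and 0 to 6 between homozygous and heterozygous males (6 without homozygous male 2). Scaling by library size alone turned the split of genes with an unadjusted p under 0.05 from 848 higher and 1004 lower to 1037 and 665 between homozygous and wild-type males, from 208 and 313 to 388 and 143 between heterozygous and wild-type males, and from 1025 and 1109 to 793 and 1145 between homozygous and heterozygous males. By Spearman's rho, the number of member pairs past the adjusted threshold was 2 in the 9 males alone, 3 within genotypes and 0 to 2 when single libraries were left out. By Pearson's r the 2 pairs in the males also passed (adjusted permutation p = 0.0409 and 0.0193), and the 3 within genotypes did not (0.0535, 0.0771 and 0.108). The within-genotype values were permuted freely over the 9 males, although deviations from a group mean are tied to each other. Their permutation p-values therefore tend to be too small, and the 3 pairs passing by rho are to be read with that limit.

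The sign of 8 of the 30 member differences turned under at least 1 alternative, 19 values in all, and the cause was not tested. With single libraries left out, the ranges of these log2 differences were -0.0239 to 0.1415 for Nqo1 (homozygous against wild type), -0.0024 to 0.1381 for Gclm (homozygous against wild type), -0.007 to 0.1835 for Txnrd1 (homozygous against wild type), -0.3023 to 0.0188 for Nox4 (heterozygous against wild type), -0.0796 to 0.0383 for Prdx3 (heterozygous against wild type), -0.0024 to 0.2187 for Srxn1 (homozygous against heterozygous) and -0.1111 to 0.0452 for Sod2 (homozygous against heterozygous). Prdx3 between heterozygous and wild-type males was 0.0617 with library size alone, 0.052 with log2(FPKM + 1) and 0.0525 with log2(FPKM + 0.1), and Prdx3 between homozygous and heterozygous males 0.0022 with the length trend removed. Without the 3 libraries low in macrophage markers, Nqo1 was -0.0962 and Gclm -0.0103 between homozygous and wild-type males, Prdx3 0.0002 between heterozygous and wild-type males and Sod2 0.0411 between homozygous and heterozygous males.

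With the replicate number as a replicate block, 0 genes were called in each comparison, with 1591, 416 and 1849 genes at an unadjusted p under 0.05. Deviations of same-numbered libraries correlated at 0.014 to 0.195 between homozygous and heterozygous males. The correlations were -0.186 to -0.058 between homozygous and wild-type males and -0.438 to -0.042 between heterozygous and wild-type males. Not every library correlated best with its own number. These correlations do not show pairing by number, but whether same-numbered animals shared a litter or handling cannot be read from them. Depth limits Nqo1 most, at 48 to 94 reads in the males. With the length trend removed, the homozygous-to-wild-type log2 difference of Nnt went from 0.2993 to 0.2543. That of Prdx3 went from -0.0971 to -0.0152. The differences of Nox4 (-0.9431 to -0.9925) and Hmox1 (1.0807 to 1.1533) grew instead, and those of the remaining members moved in both directions.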
